A study of Mus musculus with 6 samples.

Results

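Pmp22, Mbp, S100b, Sox10, Mag, Prx, Egr2 and Cnp are genes of myelin and of the Schwann cell, the glial cell of peripheral nerve, and their mRNA was measured here in whole quadriceps muscle. The members were all array probes, control spots excepted, whose transcript was assigned to one of these genes in the RefSeq mouse annotation. This gave 12 probes for the 8 genes, among 56605 probes and 25005 genes and transcripts tested in all. The samples came from 6 male AR97Q mice, all transgenic for a human androgen receptor with an expanded polyglutamine tract, which models the motor neuron and muscle disease SBMA (spinal and bulbar muscular atrophy). The mice had a C57BL/6J background and were taken at 9 weeks of age. The 3 exercise mice had run on a forced wheel from 5 weeks of age at 5 m/min, for 60 min per day on 5 days a week over 4 weeks, and the 3 sedentary mice had not. Each mouse had 1 single-colour Agilent array, there was no wild-type array in the series, and p-values measure the spread between these few mice.

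Schwann cells wrap motor and sensory axons in the nerve branches inside a muscle, and non-myelinating ones cap the neuromuscular junction. The membrane sheath of a myelinating Schwann cell is fused into compact myelin by proteins such as myelin basic protein (Mbp) and peripheral myelin protein 22 (Pmp22), while channels of cytoplasm remain at its inner and outer edges, where myelin-associated glycoprotein (Mag), 2',3'-cyclic nucleotide 3' phosphodiesterase (Cnp) and periaxin (Prx) lie. The transcription factor Sox10 is needed throughout the Schwann cell lineage, and Egr2, which it activates, switches on the genes of the sheath. In a muscle sample these transcripts come from a small share of the tissue. Other cells also make Pmp22, Cnp, S100b, Egr2, Prx and some long Mbp transcripts.

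Every one of the 12 probes was well above background on all 6 arrays, so each gene had a measured level in both groups. Across the arrays, 54.6 to 59.9% of all probes passed that mark, and saturation occurred on 0 spots. Levels are given as log2 of the processed signal minus that array's 75th percentile, so a value of 0 is a signal at the percentile. A probe's level cannot be set against another probe's, and only differences between arrays are compared. A difference is the exercise mean minus the sedentary mean on the log2 scale, tested with limma and adjusted over all 25005 genes and transcripts with the Benjamini-Hochberg method.

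With this test 0 of the 8 genes passed an adjusted p of 0.05, in a comparison in which 17.6% of all genes and transcripts passed, 6.15% lower in exercise and 11.5% higher. The adjusted p-values lay between 0.0562 for Sox10 and 0.695 for Cnp. With the further demand of an absolute log2 fold change of 1, 0 of the 8 genes passed, against 1.06% of all genes and transcripts lower and 1.72% higher. Without adjustment 2 of the 8 genes, Sox10 and Mag, had a p under 0.05. All of the 17.6% of genes and transcripts that passed after adjustment met that mark too, and the full share was not counted. Exercise was below sedentary for 6 of the 8 genes, and 47.2% of all genes and transcripts had a difference below 0. The median difference of the 8 genes was -0.26, against 0.03 over all genes tested, and it was -0.14 without sedentary mouse 1. In whole muscle, fewer Schwann cells and less of an mRNA per Schwann cell cannot be told apart.

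**Figure D1:**
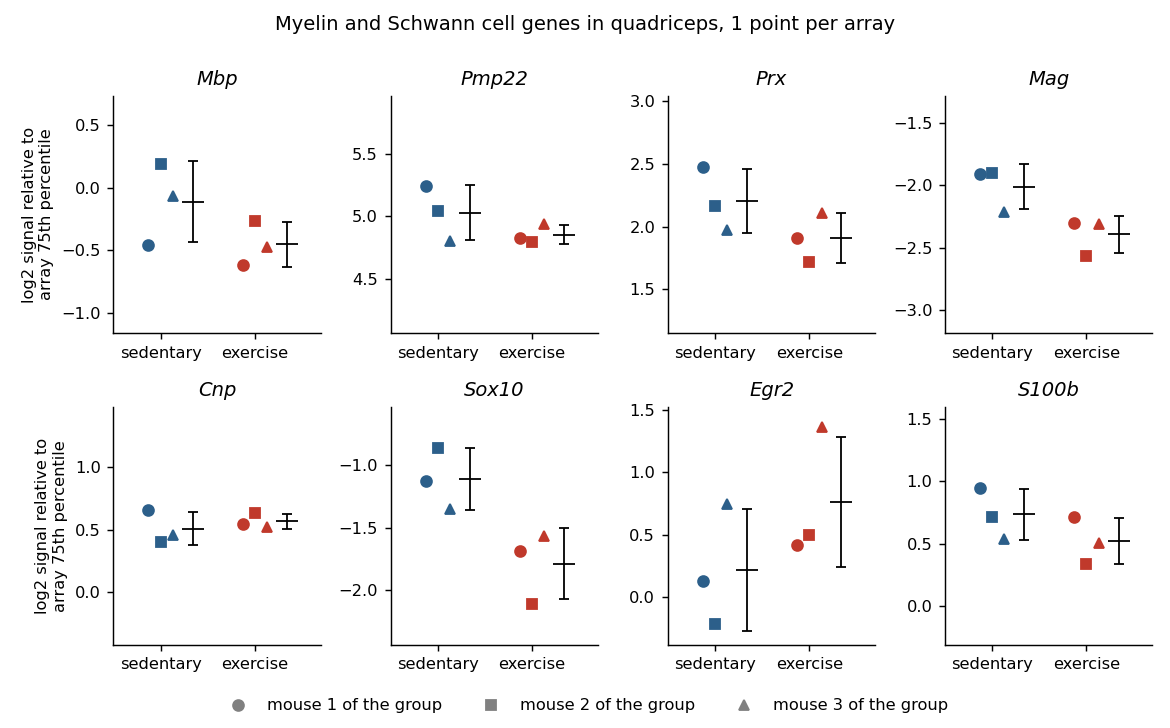
Log2 signal relative to the 75th percentile of the array (y axis, each panel spanning the same range) for the 8 genes in 3 sedentary (blue) and 3 exercise (red) mice, 1 point per array, with the mean and SD of each group as black bars. The exercise arrays lie below all sedentary arrays for Sox10 and Mag, and the groups overlap for the other 6 genes.

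Among the transcription factors, Sox10 had the widest gap. Its level was -1.69, -2.11 and -1.57 in exercise mice 1, 2 and 3, and -1.13, -0.86 and -1.35 in sedentary mice 1, 2 and 3. All 3 exercise arrays were below all 3 sedentary arrays, as was the case for 2 of the 8 members and 18.2% of all genes and transcripts. The reverse order was seen in 0 of the 8 members and in 25% of all genes and transcripts. The means were -1.79 ± 0.28 (SD, n = 3) and -1.11 ± 0.24 (SD, n = 3), a difference of -0.68 with a standard error of 0.19 and a 95% confidence interval from -1.13 to -0.22. On a linear scale the exercise level was 0.626 times the sedentary level, and the adjusted p was 0.0562. Over 18 alternative settings the adjusted p ran from 0.00659 to 0.293 and was under 0.05 in 6. Sox10 also marks melanocytes and oligodendrocytes. Of 6 melanocyte genes, 4 were well enough detected to be tested and 0 passed the test. The summed linear levels of those 4 were 6.35 to 7.22 in exercise and 5.99 to 7.33 in sedentary mice. That sum is mostly made up of genes other than Mlana, which was detected on 3 sedentary and 0 exercise arrays, had a difference of -0.82 and was at least 1.32-fold lower in exercise. Of the defining genes Pmel and Tyrp1, Pmel was detected on 1 sedentary array and neither on an exercise array. The part of melanocytes in the Sox10 result was not tested. Of 7 oligodendrocyte genes, Ermn and Mog were tested and neither passed.

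Egr2, the factor downstream of Sox10, lay on the other side. Its level was 0.42, 0.50 and 1.36 in exercise mice 1, 2 and 3, and 0.13, -0.22 and 0.75 in sedentary mice 1, 2 and 3. The groups overlapped, and mouse 3 had the highest value within each group. The difference was 0.54 with a standard error of 0.34 and a 95% confidence interval from -0.28 to 1.37 (adjusted p = 0.292). With 1 array left out it ran from 0.24 without exercise mouse 3 to 0.80 without sedentary mouse 3. Egr2 is also an immediate early gene that many cells induce within a short time of a stimulus. Jun, another such gene and a driver of the repair state of Schwann cells, was likewise highest in exercise mouse 3, at 6.16 against 5.72 and 5.31 in exercise mice 1 and 2 and 4.85 to 5.10 in the sedentary mice (difference 0.77, adjusted p = 0.0591). Nab2, a corepressor that binds Egr2, was at 2.76 in that mouse and between 1.33 and 1.78 on the other 5 arrays (difference 0.42, adjusted p = 0.416).

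The mRNAs of both compact myelin proteins lay lower in exercise on average on their brightest probes, with overlapping groups. Pmp22, a membrane protein whose gene dosage causes inherited neuropathies, had levels of 4.83, 4.79 and 4.94 in exercise mice 1, 2 and 3 and of 5.24, 5.04 and 4.80 in sedentary mice 1, 2 and 3. Sedentary mouse 3 lay among the exercise mice and the other sedentary mice lay above them. The difference was -0.18 with a standard error of 0.13 (95% confidence interval -0.49 to 0.14, adjusted p = 0.355), and a second Pmp22 probe gave -0.07. Mbp, which glues the cytoplasmic faces of the membrane together, was at -0.62, -0.26 and -0.48 in exercise mice 1, 2 and 3 and at -0.46, 0.19 and -0.07 in sedentary mice 1, 2 and 3. Here sedentary mouse 1, the highest of its group for Pmp22, was the lowest. The difference of -0.34 (standard error 0.19, 95% confidence interval -0.80 to 0.11, adjusted p = 0.235) came from 1 of its 3 probes. Without sedentary mouse 2 it was -0.19 and without sedentary mouse 1 it was -0.51. The other two probes, designed to a different Mbp transcript, gave 0.12 and -0.06, and the mean of the 3 probes gave -0.10.

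The genes of non-compact myelin differed among themselves in sign. Mag, the adhesion protein that faces the axon, was at -2.30, -2.56 and -2.31 in exercise mice 1, 2 and 3 and at -1.91, -1.90 and -2.22 in sedentary mice 1, 2 and 3. The groups did not overlap, although sedentary mouse 3 was within 0.1 of exercise mice 1 and 3. The difference was -0.38 with a standard error of 0.13 and a 95% confidence interval from -0.70 to -0.07, and the adjusted p was 0.0885. With normexp background correction the Mag difference was -0.04 (adjusted p = 0.716), so its size depended on how the background was removed. Prx, which ties the sheath to the basal lamina, was at 1.91, 1.71 and 2.11 in exercise mice 1, 2 and 3 and at 2.48, 2.17 and 1.97 in sedentary mice 1, 2 and 3. The groups overlapped through exercise mouse 3 and sedentary mouse 3, and the difference was -0.30 with a standard error of 0.17 (95% confidence interval -0.70 to 0.11, adjusted p = 0.244). A second Prx probe gave -0.34 with all exercise arrays below all sedentary arrays (adjusted p over probes 0.178). Cnp, an enzyme of the cytoplasmic channels, was the most even of the 8 genes, at 0.55, 0.64 and 0.52 in exercise mice 1, 2 and 3 and at 0.66, 0.41 and 0.46 in sedentary mice 1, 2 and 3. Its groups overlapped fully, and the difference of 0.06 had a 95% confidence interval from -0.18 to 0.30 (standard error 0.10, adjusted p = 0.695).

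S100b, a calcium-binding protein found in myelinating and non-myelinating Schwann cells, was at 0.71, 0.34 and 0.51 in exercise mice 1, 2 and 3 and at 0.95, 0.72 and 0.54 in sedentary mice 1, 2 and 3. The order of the mice was that of Prx within the sedentary group, and the groups overlapped through exercise mouse 1. The difference was -0.22 with a standard error of 0.15 (95% confidence interval -0.57 to 0.14, adjusted p = 0.328). Adipocytes also make S100b. Among 8 adipocyte genes 0 passed as lower and Lep passed as higher (though it was at -0.12 without scaling and -0.18 with scaling on spike-in probes), with a median difference of -0.68. Their summed linear levels were 238, 329 and 626 in exercise mice 1, 2 and 3. In sedentary mice 1, 2 and 3 they were 540, 546 and 423. The part of adipocyte RNA in the S100b result was not tested further.

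**Figure D2:**
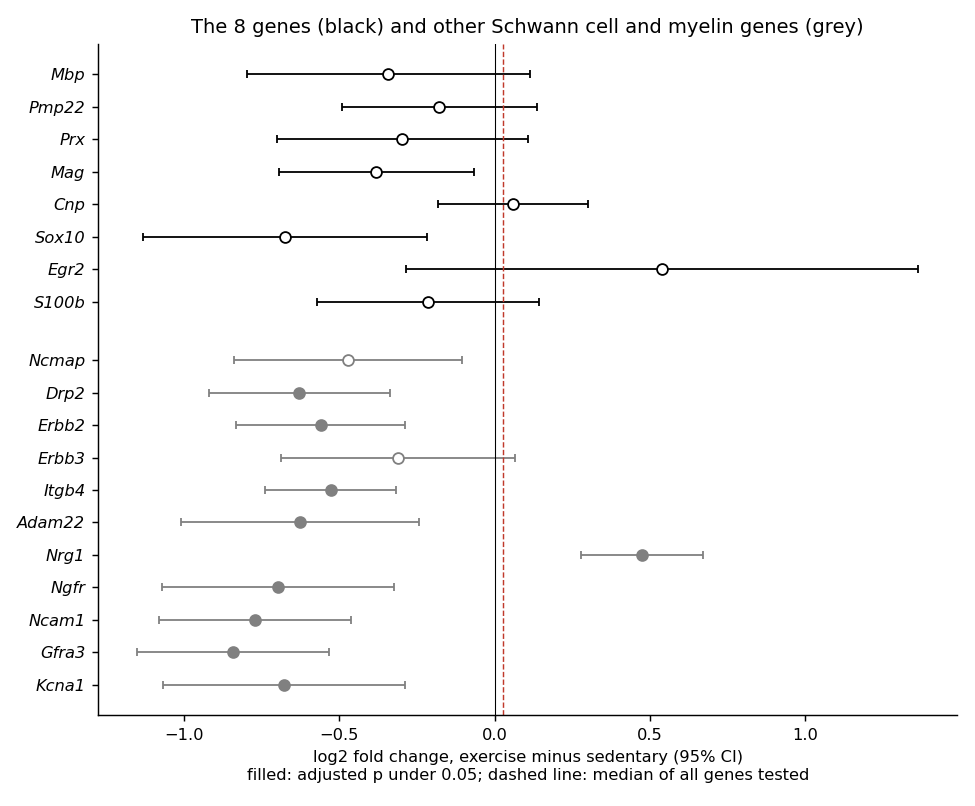
Difference between exercise and sedentary mice on the log2 scale (x axis, points) with 95% confidence intervals (bars) for the 8 genes in black and 11 other Schwann cell and myelin genes in grey. Filled points passed an adjusted p of 0.05, open points did not, and the dashed line is the median of all genes tested at 0.03.

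Pmp22, S100b, Sox10, Mag and Prx, picked out here after their values were seen, shared their lowest mouse in each group. In all 5 genes exercise mouse 2 was the lowest exercise array and sedentary mouse 3 the lowest sedentary array. Sedentary mouse 1 was above every exercise array in all 5, whereas sedentary mouse 3 was below the highest exercise array in 3 of them, Pmp22, S100b and Prx. The share of all genes and transcripts with these orders was not counted. Exercise mouse 2 also had the lowest share of probes well above background (54.6%) and sedentary mouse 3 the highest (59.9%). Whether the order runs through the whole array was not tested. After each gene was centred on its mean over the 6 arrays, the closest pair was Pmp22 and Prx, with a root mean square difference of 0.10, followed by Pmp22 and S100b at 0.11 and by Mag and Prx at 0.12. Sox10 was closest to Mag, at 0.19. Egr2 was closest to Cnp, at 0.50, and Mbp to Mag, at 0.29. These distances describe 6 arrays and carry no test.

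By the same measure, the nearest genes over the 15747 named genes tested were read for each member. Pmp22 was nearest to Zfp592, Pnpla6 and Flna, and Mbp to Cpt1a, Sin3b and Trappc6a. S100b was nearest to Sgo1, Ankrd13d and Gm14308, and Sox10 to Septin3, Fblim1 and Il22ra1. The list for Mag held Traf1, Ipo8 and Scn7a, a sodium channel gene of Schwann cells, at 0.06. The list for Prx held Acss3, Clstn3 and Dhh, the hedgehog ligand that Schwann cells release, also at 0.06. Cnp was nearest to Cacna1h, Steap1 and Ide, and Egr2 to Gm525, Doc2a and Shisal2b. The distances were 0.01 to 0.10 for 7 members and 0.17 to 0.18 for Egr2, whose pattern had no equally close match.

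Since Sox10 and Egr2 are known to bind the regulatory regions of myelin genes, promoter windows of 200 bases, from 250 to 51 bases before the most upstream RefSeq start (build GRCm38.p6), were searched on both strands. The letters were ACAAAG, a core that SOX proteins bind, and GTGGGNG, part of the site of Egr zinc fingers. Matches to the motifs did not overlap in the windows described here. Windows were held for 6 of the 8 genes, not for Sox10 and Mbp. Mag and Cnp held ACAAAG, as did 13.6% of 27025 promoters, and Prx and Egr2 held GTGGGNG, as did 21.9%. Shown are Mag, Prx and S100b, which shared their lowest mouse in each group, and Cnp, which did not. Capitals mark the motif, which in Mag and Prx is on the opposite strand, and each sequence reads 5′ to 3′ towards the gene.
Mag, chr7:30914973-30915172, reverse strand: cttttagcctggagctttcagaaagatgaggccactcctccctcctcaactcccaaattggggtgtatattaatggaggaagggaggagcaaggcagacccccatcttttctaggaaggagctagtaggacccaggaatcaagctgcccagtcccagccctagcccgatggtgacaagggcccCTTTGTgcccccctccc
Cnp, chr11:100574689-100574888, forward strand: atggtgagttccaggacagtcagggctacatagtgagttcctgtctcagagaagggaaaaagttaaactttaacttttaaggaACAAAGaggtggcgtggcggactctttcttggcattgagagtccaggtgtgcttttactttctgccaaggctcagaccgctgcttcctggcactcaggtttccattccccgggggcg
Prx, chr7:27499074-27499273, forward strand: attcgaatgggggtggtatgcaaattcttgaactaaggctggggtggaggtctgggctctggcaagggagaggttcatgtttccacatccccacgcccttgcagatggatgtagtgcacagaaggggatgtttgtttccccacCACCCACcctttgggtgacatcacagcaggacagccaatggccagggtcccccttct
S100b, chr10:76253586-76253785, forward strand: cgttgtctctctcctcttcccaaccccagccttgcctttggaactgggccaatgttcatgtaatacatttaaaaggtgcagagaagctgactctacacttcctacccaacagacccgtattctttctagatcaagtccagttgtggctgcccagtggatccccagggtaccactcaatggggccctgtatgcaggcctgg

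The ACAAAG match was 67 to 62 bases before the start of Mag and 167 to 162 bases before that of Cnp, and the GTGGGNG match was 107 to 101 bases before that of Prx. Mag and Cnp thus shared a motif although Mag was -0.38 and Cnp 0.06 between the groups, and S100b had neither motif. A match of letters is a description and no binding was measured.

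The wider setting was read from 6 lists of myelin and Schwann cell genes, which held 68 genes besides the 8 members. Of these 58 were tested. In exercise 13 fell and 1 rose, against 6.15% and 11.5% of all genes and transcripts, and 44 did not pass. Of the 13, 1 (Tfap2a) was detected on sedentary arrays only, and the other 12 were detected on all 6 arrays. The median difference of all 58 tested genes was -0.29. Over all 66 tested genes of the lists, members included, it was also -0.29, but -0.07 with normexp background correction, -0.17 without exercise mouse 2 and -0.19 without sedentary mouse 1. These calls rested on all 6 arrays. With any 1 array left out, other than that of sedentary mouse 1, 0 of the list genes passed, in fits in which at most 1 gene passed of all those tested. Without sedentary mouse 1, 12 list genes fell and 4 rose.

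Of 10 tested genes of compact myelin and its lipids, which include Pmp22 and Mbp, all were lower in exercise (9 with subtraction of the array median) and 1 passed. Pmp2, the fatty acid carrier of compact myelin, did not rise well above background anywhere.

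Of 16 tested genes of non-compact myelin, nodes and paranodes, 2 fell, with a list median of -0.09. Drp2, the partner of Prx at the Schwann cell membrane, fell by 0.63 (standard error 0.12, adjusted p = 0.0264), while Prx itself had -0.30. A second Drp2 probe gave -0.07. Nrcam, an adhesion protein of the node that other cells also make, was at -0.02 in sedentary mouse 1 but at 1.27 and 1.48 in sedentary mice 2 and 3, and fell by 1.78 in exercise. Ncmap, a protein of non-compact myelin, had -0.47 with no overlap between the groups (adjusted p = 0.0772), and a second Ncmap probe gave -0.57 (adjusted p over probes 0.0495).

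Of 10 tested transcription factors and regulators, which include Sox10 and Egr2, Id2 and Tfap2a passed as lower. Id2, an inhibitor of differentiation that many cells express, fell by 0.96 (adjusted p = 0.0331). Tfap2a, a factor of Schwann cell precursors, was well above background on 3 sedentary and 0 exercise arrays, and was at least 2.83-fold lower in exercise. It entered the test only through its sedentary arrays, a filter that favours genes lower in exercise, so its fall carries little weight. Nab1 had no named probe here.

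In the neuregulin and adhesion list of 11 tested genes, 3 fell and 1 rose. The receptor subunit Erbb2 fell by 0.56 (adjusted p = 0.0281), and its partner Erbb3, the more Schwann cell restricted of the pair, had -0.31 with overlapping groups (adjusted p = 0.201). A second Erbb2 probe gave -0.34. The laminin receptor subunit Itgb4 fell by 0.53 (adjusted p = 0.0239), and Adam22, a receptor for the glial ligand Lgi4, fell by 0.63 (adjusted p = 0.0441). The ligand Nrg1 rose by 0.47 (standard error 0.08, adjusted p = 0.0239), with exercise values of -0.16 to -0.23 and sedentary values of -0.61 to -0.73. A second Nrg1 probe gave 0.24, and with scaling on the spike-in probes the brightest Nrg1 probe was at -0.06.

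Of 9 tested genes of the immature and repair Schwann cell, 3 fell. Ngfr, the low-affinity neurotrophin receptor of non-myelinating and repair Schwann cells, was at -2.12, -1.98 and -1.70 in exercise mice 1, 2 and 3 and -1.39, -1.01 and -1.32 in sedentary mice 1, 2 and 3, a fall of 0.70 (adjusted p = 0.0338). The adhesion protein Ncam1, which denervated muscle fibres also make, fell by 0.77 (adjusted p = 0.0239). The adhesion protein L1cam fell by 0.70 on its brightest probe (adjusted p = 0.0438, and 0.0452 over probes). A second, dimmer L1cam probe gave 0.72 in the opposite direction and passed as well (adjusted p over probes 0.0305). That probe was well above background on 3 exercise arrays and 1 sedentary array. The count of L1cam among the genes that fell thus rests on the choice of probe. Gfap, Shh and Olig1 did not rise well above background anywhere, and Sox2 and Cdh19 did so on 2 sedentary arrays only. Of 11 tested genes of other Schwann cell identity, which include S100b, 3 fell. Among them were the artemin receptor subunit Gfra3 (-0.84, adjusted p = 0.0234) and the potassium channel gene Kcna1, which axons carry near the node (-0.68, adjusted p = 0.0387).

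**Figure D3:**
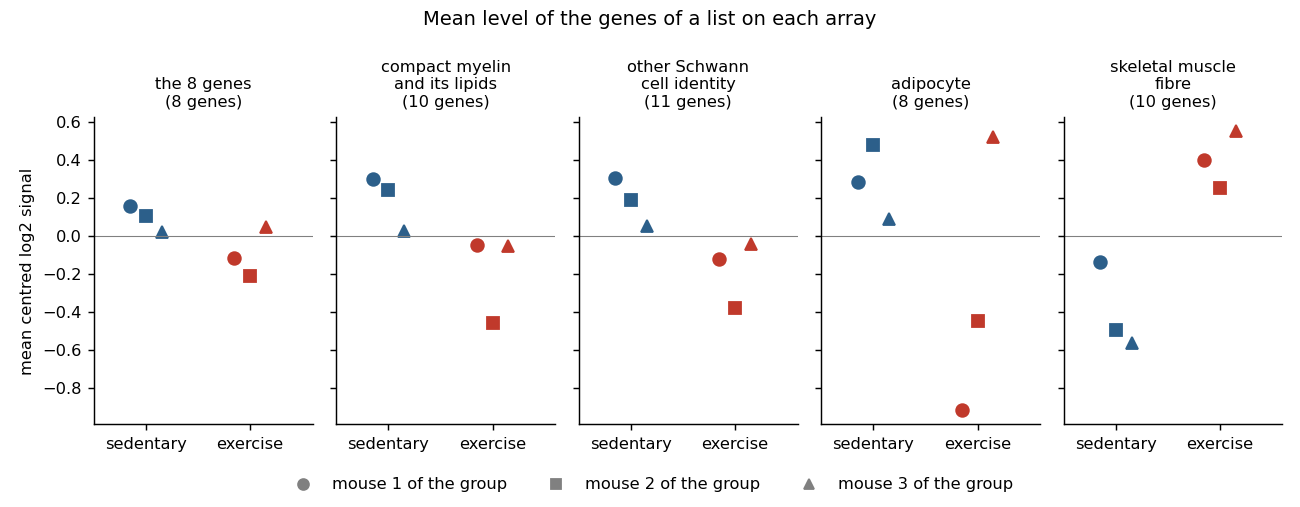
Mean over the tested genes of a list of log2 signal centred on each gene's mean over the 6 arrays (y axis), 1 point per array, for sedentary (blue) and exercise (red) mice. The 8 genes overlap between the groups through exercise mouse 3 at 0.04, the compact myelin and Schwann cell identity lists are lowest in exercise mouse 2, and the muscle fibre list is higher on all exercise arrays.

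Other cell types of the sample moved as follows. Of 10 skeletal muscle fibre genes 7 rose (and 7 had a difference above 0 without scaling), among them Ckm by 1.50, Atp2a1 by 1.21, Mb by 1.20 and Acta1 by 0.93, with a list median of 0.86. Their summed linear level was 4254 to 4874 in exercise and 2144 to 3023 in sedentary mice, with sedentary mouse 1 nearest to the exercise group. Of 7 endothelial, 8 macrophage and 7 fibroblast genes 0 passed, with list medians of 0.06, 0.00 and 0.06. Their summed levels overlapped between the groups. Of 10 perineurial and endoneurial genes 8 had a difference below 0, with a list median of -0.19, and Slc2a1 fell by 0.80 and Itgb4 by 0.53. The summed levels were 96.3 to 119 in exercise and 92.2 to 104 in sedentary mice. Clu (0.62, without passing) and Apod (-0.19) made up most of that sum, so it does not stand for the other genes of the list. Of 9 tested axon genes 1, the neurofilament gene Nefh, passed. It was detected on 3 sedentary and 0 exercise arrays, which is why it was tested, and was at least 1.48-fold lower in exercise. Of 6 smooth muscle genes, Myh11 fell by 0.95 and Acta2 rose by 1.32 on its brightest probe, while its other probes gave -0.89 and -0.80. Cnn1 had -1.67 and Tagln -0.52 without passing. The summed level of the smooth muscle genes was 445 to 507 in exercise and 240 to 293 in sedentary mice. The brightest Acta2 probe made up the largest part of that sum, so the sum follows a direction that the other Acta2 probes did not share. The part of the fibre and smooth muscle genes in the differences of the 8 members was not tested.

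The barcode in the scanner files carries a suffix, read here as the strip of the slide. By that reading all exercise arrays and that of sedentary mouse 1 lay in strip 1, and those of sedentary mice 2 and 3 in strip 2. Whether the strips were processed apart is not stated. Within strip 1, exercise against sedentary mouse 1 gave -0.66 for Sox10, -0.48 for Mag, -0.57 for Prx, -0.43 for S100b and -0.39 for Pmp22. For Mag, Prx, S100b and Pmp22 this was larger than over all arrays. Without sedentary mouse 1 they stood at -0.33, -0.16, -0.11 and -0.07 in that order. Mbp was at 0.00 within strip 1 and Cnp at -0.09, both on the other side of 0 from their values over all arrays. Egr2 was at 0.63. With the strip as a block the sedentary side rested on sedentary mouse 1 alone, so only the size of each difference is given.

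**Figure D4:**
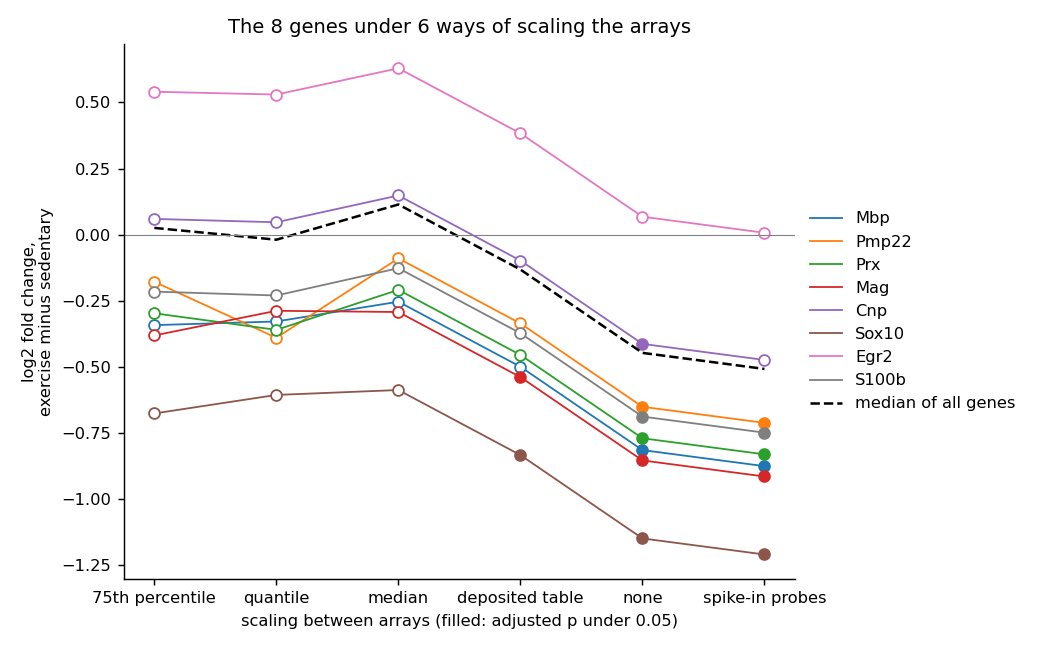
Difference between exercise and sedentary mice on the log2 scale (y axis) for the 8 genes under 6 ways of scaling the arrays (x axis), with the median of all genes as a dashed line. Filled points passed an adjusted p of 0.05, and the 8 genes keep their distance to the dashed line under the 5 ways that apply 1 factor or none per array.

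The number of members that passed depended on the scaling between arrays. The unscaled signal was lower in exercise, so that the median of all genes was -0.45 without scaling, -0.51 with scaling on 8 spike-in probes and -0.13 in the deposited table, against 0.11 with subtraction of the array median. Without scaling 7 members passed as lower, all but Egr2, and with the spike-in probes 6 did, all but Egr2 and Cnp. Of all 25005 genes and transcripts, 11897 passed without scaling and 10042 with the spike-in probes, in either direction. With the 75th percentile 4407 did, and 4373 in the deposited table. In the deposited table Sox10 at -0.83 and Mag at -0.54 passed. Relative to the median of all genes, Sox10 was at -0.70, Mag at -0.41, Mbp at -0.37, Prx at -0.32, S100b at -0.24, Pmp22 at -0.20, Cnp at 0.03 and Egr2 at 0.51, values that 1 factor per array leaves as they are. Sox10 was the lowest of the 8 on this scale, and no other member was past -0.5.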

How the data were processed

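RNA of each mouse was labelled with Cy3 and hybridized to 1 Agilent array. The authors deposited scanner files from Agilent Feature Extraction 12.1.0.3, whose processed signal is an intensity with the background subtracted and spatial trends removed, along with median spot and background intensities and flags for outliers, saturation and detection. A further deposited table held intensities, each column of which equalled the processed signal of its array times 1 factor (1.33 to 1.88; column medians 42.7 to 58.5); how that factor was set is not given in the sources used here. It served as an alternative.

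Control spots (3671 of 62976) and outlier spots were left out, log2 was taken, spots of a probe were averaged and the 75th percentile of the array was subtracted. Probes missing on any array (22) were left out. Probes were named by unversioned RefSeq or Ensembl accession (34566 of 56605 matched). A probe was kept where 3 or more of the 6 arrays showed it well above background (32726), and the one with the highest mean stood for a gene. The test of exercise against sedentary was limma 3.58.1 under R 4.3.3, by lmFit and eBayes, two-sided, with Benjamini-Hochberg adjustment. For a single gene an exact permutation test of 3 against 3 arrays cannot go below 0.1. On simulated arrays with 200 of 25005 genes changed by 2 on the log2 scale, more than any member differed, the test recovered 168 and called 10 others. A dim group's limit was the lowest signal well above background on each array. Tables and figures were made with Python 3.11.15 and matplotlib 3.10.9.

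The members and the gene lists were chosen with earlier results of these data known. Named were all members, the genes of each list past an adjusted p of 0.05 (at most the 4 with the largest change), Ncmap, Erbb3 and Ngfr, and the 3 genes nearest to each member. Jun, Nab2, Ermn, Mog, Mlana, Cnn1, Tagln, Clu, Apod and genes not detected were named after their values were seen. Some genes that the rule would name are counted in their lists but not reported here by name. The methods' further threshold of an absolute log2 fold change of 1 was an alternative, beside other scalings, background correction, filters, probe choice, variance model, blocks and each array left out. The number of arrays limits the precision. The RefSeq promoter table is of build GRCm38.p6.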

Additional observations from a re-analysis of the deposited data

How the results depend on the processing

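Of the 8 genes, 0 passed with quantile normalization, with the array median, without a filter and with the mean of probes. At an absolute log2 fold change of 1 it was also 0. In the 6 fits without 1 array 0 passed (0 to 0), and in 5 of these 0 or 1 gene passed of all tested. Without scaling 7 passed, with spike-in scaling 6, and 2 did in the deposited table. In these fits 11897, 10042 and 4373 of all 25005 genes and transcripts passed, against 4407 in the main test. Sox10 alone passed (1 gene) with normexp, with a filter on all arrays and with a trended, robust variance. There 8292 of 25005, 5091 of 22287 and 5711 of 25005 genes and transcripts passed. Cnp changed sign to -0.41 without scaling, -0.47 with the spike-in probes, -0.10 in the deposited table and -0.091 with the strip as a block, and Mbp to 0.0025 with the strip as a block. The cause was not tested. Of 144 values of single members, 5 changed sign and 18 newly passed. Without a filter on dim probes the median of all genes was 0.18.

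Of the 66 tested genes of the 6 wider lists, members included, 14 passed, against 50 without scaling, 45 with the spike-in probes and 2 at an absolute log2 fold change of 1. Over all 25005 genes and transcripts 4407 passed, against 11897, 10042 and 694 in the same order. The fits without 1 array left 0 to 16 list genes, and 5 of the 6 left 0, where 0 or 1 gene passed of all tested. The split of 13 lower and 1 higher became 9 and 2 with the array median and 14 and 6 with normexp.

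The replicate number as a block left 0 of the 8 genes and 0 of the 66 list genes past the threshold, where 0 of all genes passed. The deviations of same-numbered mice correlated at 0.02, 0.08 and 0.04, so the numbers were not taken to pair mice, and not every mouse correlated best with its own number.

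With 3 mice a group, the 95% confidence intervals of the 8 genes reached from -1.13 to 1.37, and changes inside them were not resolved. No Schwann cell level was measured apart from the whole muscle.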
